A study of Canis lupus familiaris with 12 samples.

Results

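The genes described here are a small set of extracellular matrix genes: COL1A2, LUM, BGN and FN1, grouped as interstitial matrix, COL15A1, HSPG2 and NID2, grouped as basement membrane, and SERPINH1, a chaperone of collagens. They were taken by gene symbol from the annotation of the array, which gave 14 of 13056 probes and 8 of 4325 genes. The set was drawn up with earlier results of these arrays known, because its ratios to the control stood out, so the ratios of these genes are given as a description, with no test and as support for nothing. Snail, Slug and E47 transfectants of MDCK, an epithelial line from dog kidney, were each compared with the MDCK-CMV control on 2-colour arrays. Each transfectant had 2 numbered samples, and each sample was hybridised on 2 arrays with the dyes exchanged, which makes 4 arrays per transfectant and 12 in all. The labels do not say whether a transfectant was 1 clone or a pool, whether samples 1 and 2 came from separate cultures, or whether the control RNA was 1 pool, so the spread between samples may be technical. All 3 transfectants were set against MDCK-CMV, so their comparisons may share control RNA.

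Interstitial matrix is the fibrous material around connective tissue cells. Its type I collagen fibrils, to which COL1A2 contributes a chain, carry small leucine-rich proteoglycans such as lumican (LUM) and biglycan (BGN), and fibronectin (FN1) is the glycoprotein that links the fibrils to integrins on cells. The basement membrane is the sheet under an epithelium, built of laminin and type IV collagen networks that nidogens (NID2 is nidogen 2) and the heparan sulfate proteoglycan perlecan (HSPG2) join together, while type XV collagen (COL15A1) lies where the sheet meets the fibrils beneath it. SERPINH1, also known as HSP47, binds newly made collagen in the endoplasmic reticulum. Snail, Slug and E47 are repressors of the E-cadherin gene CDH1 and are known for driving epithelial cells, MDCK among them, towards a mesenchymal form, in which interstitial matrix is typically made in larger amounts.

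All directions below are assumed. The deposited values are log2 ratios, and the labels name the dyes but not which channel is the numerator. Arrays of 1 transfectant whose titles name the same dye correlated as low as r = -0.61 over all probes, so the dye does not settle the direction. Both arrays of Snail 2, both of Slug 1 and the E47 2 array titled Cy5 were therefore multiplied by -1, 5 arrays of 12. An eigenvector of the array correlations of each transfectant, computed without the genes described here and without CDH1, gave the same relative sign for 12 of 12 arrays. CDH1 then lay below the control in every transfectant (-2.07 ± 0.06 in Snail, -2.46 ± 0.02 in Slug and -2.07 ± 0.40 in E47, log2 ratio, SD, n = 2), which is how the sign was chosen and is no finding. With the sign of a transfectant turned, every "higher" below becomes "lower" and every rank from the top becomes the same rank from the bottom, though genes that lie on the CDH1 side remain on that side. The arrays held values for 10654 to 12982 probes, and a ratio carries no level, so neither the amount of a transcript nor the presence of a marker of kidney epithelium can be read from these values. In RNA of a whole culture, fewer cells that express a gene and less of its RNA per cell cannot be told apart.

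COL1A2 lay above the control on all 12 arrays, and its ratio was largest in E47. In the Snail transfectant its log2 ratios were 1.97 and 1.78 on the arrays of sample 1 titled Cy5 and Cy3, and 1.91 and 2.31 on those of sample 2. In Slug they were 0.68 and 1.83 for sample 1 and 1.95 and 1.94 for sample 2. In E47 they were 2.27 and 2.92 for sample 1 and 3.44 and 3.46 for sample 2. Only the Slug 1 array titled Cy5 lay below 1, and it differed from its dye partner by 1.15, where the median gene of that sample differed by 0.245. The means were 1.99 ± 0.17 in Snail, 1.60 ± 0.49 in Slug and 3.02 ± 0.61 in E47 (SD, n = 2 samples), which are 3.98-fold, 3.03-fold and 8.12-fold higher levels than in the control. The samples of E47 lay above those of Snail and of Slug without overlap, while those of Snail and Slug overlapped. By array, E47 and Snail did overlap, since the E47 1 array titled Cy5 (2.27) lay below the Snail 2 array titled Cy3 (2.31). In E47, COL1A2 had rank 2 of 3966 genes from the top. A single spot reads COL1A2.

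LUM had another order. Its log2 ratios in Slug were 3.43 and 4.02 on the arrays of sample 1 titled Cy5 and Cy3, and 4.01 and 4.23 on those of sample 2. In Snail they were 1.84 and 1.30 for sample 1 and 3.78 and 1.70 for sample 2. In E47 they were 0.39 and -0.27 for sample 1 and 0.50 and 0.38 for sample 2. The lumican ratio was thus high on every Slug array, intermediate in Snail and close to the control in E47. The means were 3.92 ± 0.28 in Slug, 2.15 ± 0.83 in Snail and 0.25 ± 0.27 in E47 (SD, n = 2), or 15.2-fold, 4.45-fold and 1.19-fold over the control. No 2 transfectants overlapped in their samples, though the Snail 2 array titled Cy5 reached into the range of Slug. On that array the 2 spots of the LUM clone differed by 2.03, at or above 99.3% of such spot pairs in the series, and the dye partners of Snail 2 differed by 2.08. LUM ranked 1 of 4053 genes from the top in Slug and 5 of 3768 in Snail, but 682 of 3966 in E47.

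FN1 lay above the control on every array of every transfectant. In Slug its log2 ratios were 1.88 and 1.85 for sample 1 (arrays titled Cy5 and Cy3) and 2.02 and 2.26 for sample 2. In E47 they were 1.08 and 0.66 for sample 1 and 1.57 and 1.22 for sample 2. In Snail they were 0.69 and 0.78 for sample 1 and 1.29 and 1.29 for sample 2. Fibronectin was highest in Slug, where no array overlapped with the other transfectants, and E47 and Snail did not differ beyond their spread. The means were 2.00 ± 0.19 in Slug, 1.13 ± 0.37 in E47 and 1.01 ± 0.40 in Snail (SD, n = 2), or 4.01-fold, 2.20-fold and 2.02-fold over the control. On both Slug 2 arrays, and on the Snail 2 array titled Cy3, only 1 of the 2 FN1 spots had a value. On the E47 1 array titled Cy3 the 2 spots differed by 1.60, at or above 98.4% of such spot pairs. The first of them lay below the control at -0.14 and the second at 1.46.

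BGN did not share this direction. Its log2 ratios in Snail were -0.79 and -0.93 for sample 1 (arrays titled Cy5 and Cy3) and -1.19 and -1.21 for sample 2. In Slug they were 0.23 and -0.07 for sample 1 and -0.14 and 0.51 for sample 2. In E47 they were 0.13 and 0.09 for sample 1 and -0.02 and 0.05 for sample 2. Biglycan was therefore below the control on all 4 Snail arrays and lay on both sides of it in Slug and in E47. The mean was -1.03 ± 0.24 in Snail, a level 2.04-fold lower than in the control, against 0.13 ± 0.08 in Slug and 0.06 ± 0.07 in E47 (SD, n = 2). Snail did not overlap with Slug or E47 on any array, and Slug and E47 overlapped. LUM and BGN, both small leucine-rich proteoglycans, thus lay on opposite sides of the control in Snail.

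**Figure D1:**
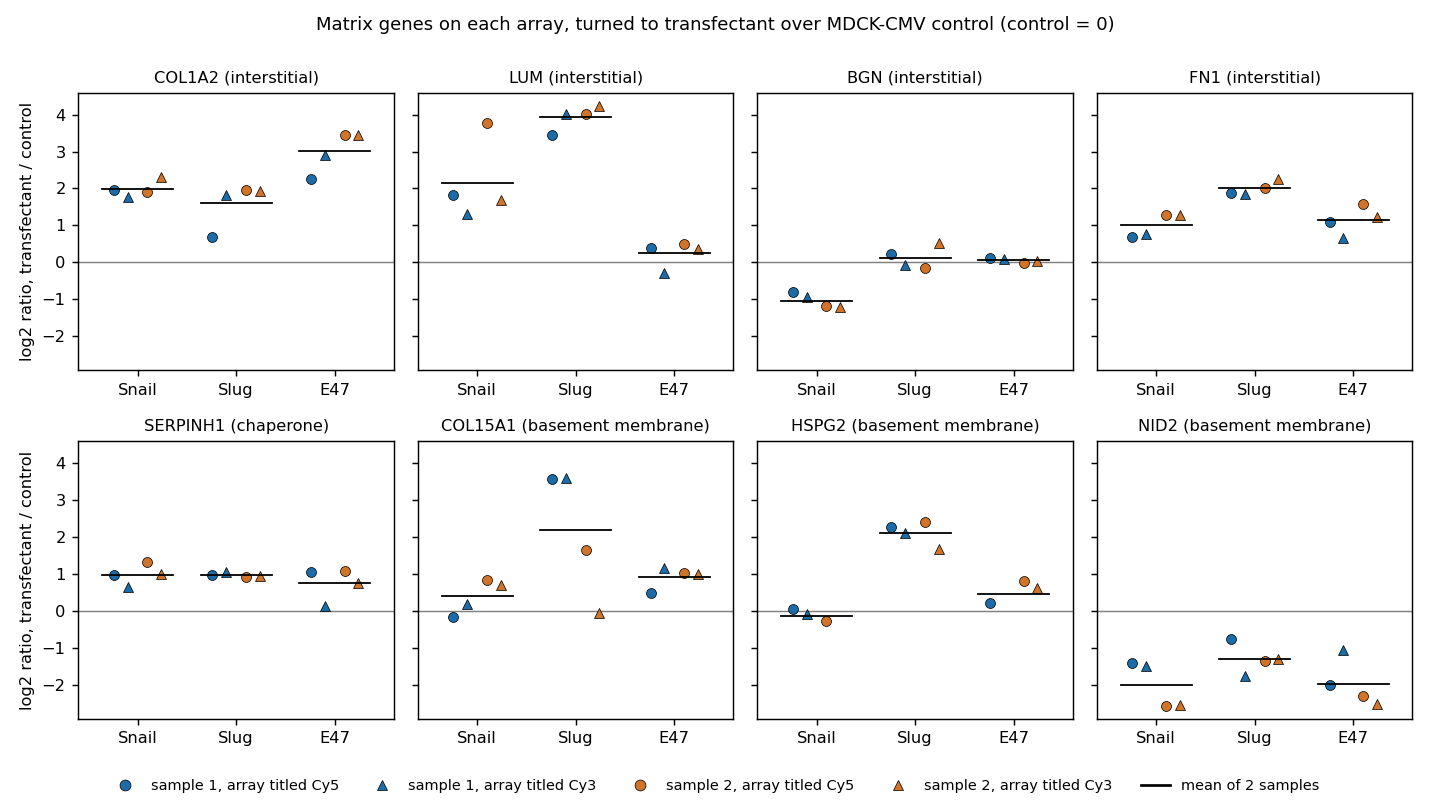
Log2 ratio of transfectant over MDCK-CMV control (vertical axis, control at 0) for each of the 8 genes on each array, by transfectant; colour gives the numbered sample, shape the dye in the array's title, and the bar the mean of 2 samples. COL1A2 and FN1 lie above 0 on all 12 arrays and NID2 below 0 on all 12, LUM orders as Slug, Snail, E47, BGN is low in Snail, and HSPG2 is high in Slug.

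SERPINH1 was read by 2 clones that did not behave alike. The first clone had log2 ratios in Snail of 1.53 and 1.30 for sample 1 (arrays titled Cy5 and Cy3) and 2.44 and 1.86 for sample 2. In Slug it had 1.75 and 2.34 for sample 1 and 2.00 and 1.69 for sample 2, and in E47 it had 1.64 and 0.33 for sample 1 and 1.74 and 1.52 for sample 2. It lay above the control on 12 of 12 arrays, with means of 1.78 ± 0.52 in Snail, 1.94 ± 0.14 in Slug and 1.31 ± 0.45 in E47 (SD, n = 2), or 3.44-fold, 3.85-fold and 2.48-fold. The second clone lay between -0.24 and 0.45 over the same arrays, with means of 0.16 ± 0.02, -0.02 ± 0.02 and 0.18 ± 0.004 in Snail, Slug and E47. Averaged over both clones, as every gene here is, SERPINH1 had 0.97 ± 0.25 in Snail, 0.96 ± 0.06 in Slug and 0.75 ± 0.23 in E47, values that neither clone showed. Which clone reads the dog transcript was not tested. On the first clone the samples of Snail overlapped with those of Slug and of E47, and on the second the Slug samples lay below those of Snail and E47. Single arrays of the second clone did overlap between transfectants.

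COL15A1 differed more between the Slug samples than any other of these genes, while in Snail LUM (1.17 apart) and NID2 (1.12) differed more than COL15A1 (0.76), and in E47 it was only 0.18 apart. In Slug sample 1 its 2 spots had log2 ratios of 3.99 and 3.12 on the array titled Cy5 and of 3.74 and 3.41 on the array titled Cy3. In Slug sample 2 they had 3.66 and -0.37 on the array titled Cy5 and 0.43 and -0.54 on the array titled Cy3. Sample 1 was thus high at all 4 readings, and sample 2 was high at 1 reading of 4. The samples averaged 3.56 and 0.79, a difference of 2.77, at percentile 99.95 of all genes in Slug, and the mean of 2.18 ± 1.96 (SD, n = 2) describes neither. Without the 1 spot at 3.66, a choice made after the values were seen, sample 2 stood at -0.21. SPARC, a matrix protein outside the set, split the same 2 samples, with 4.17 in Slug sample 1 and -0.67 in Slug sample 2. In E47, COL15A1 was above the control on all 4 arrays, at 0.48 and 1.16 for sample 1 and 1.02 and 0.98 for sample 2, with a mean of 0.91 ± 0.13. In Snail it was at -0.16 and 0.17 for sample 1 and 0.84 and 0.69 for sample 2, with a mean of 0.38 ± 0.54. E47 and Snail samples did not overlap, though their arrays did, and the lower E47 sample (0.82) lay close to the higher Snail sample (0.76). Slug overlapped with E47.

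**Figure D2:**
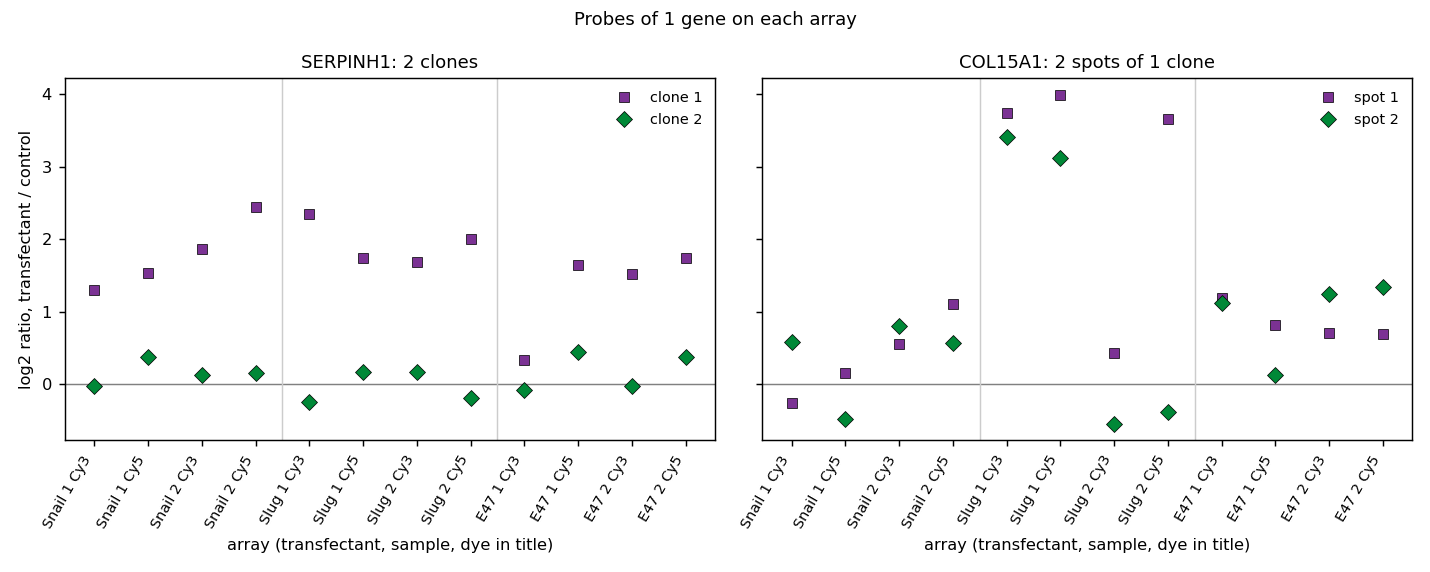
Log2 ratio of transfectant over control (vertical axis) on each of the 12 arrays (horizontal axis) for the 2 clones of SERPINH1 (left) and the 2 spots of the COL15A1 clone (right). Clone 1 of SERPINH1 lies above 0 throughout and clone 2 between -0.24 and 0.45; the COL15A1 spots are both above 3 on the Slug 1 arrays and apart by 4.03 on the Slug 2 array titled Cy5.

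HSPG2 stood out in Slug. Its log2 ratios there were 2.26 and 2.11 for sample 1 (arrays titled Cy5 and Cy3) and 2.39 and 1.66 for sample 2. In E47 they were 0.19 for sample 1, on the array titled Cy5 alone, and 0.79 and 0.60 for sample 2. In Snail they were 0.04 and -0.10 for sample 1 and -0.27 for sample 2, again on the array titled Cy5 alone. Perlecan was higher on every Slug array than on any other array, and Snail and E47 did not overlap either. The means were 2.10 ± 0.11 in Slug, 0.44 ± 0.36 in E47 and -0.15 ± 0.17 in Snail (SD, n = 2), or 4.30-fold and 1.36-fold higher in Slug and E47 and 1.11-fold lower in Snail, relative to the control. With 1 array missing in E47 and in Snail, HSPG2 entered the fit across all genes for Slug only. A single spot reads it.

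NID2 was the 1 gene of the set below the control on all 12 arrays. In Snail its log2 ratios were -1.42 and -1.49 for sample 1 (arrays titled Cy5 and Cy3) and -2.58 and -2.56 for sample 2. In E47 they were -2.02 and -1.07 for sample 1 and -2.32 and -2.52 for sample 2. In Slug they were -0.77 and -1.76 for sample 1 and -1.37 and -1.32 for sample 2. The means were -2.01 ± 0.79 in Snail, -1.98 ± 0.62 in E47 and -1.31 ± 0.06 in Slug (SD, n = 2), so that the control exceeded the transfectant 4.04-fold, 3.95-fold and 2.47-fold. Snail and E47 overlapped, and the Slug samples lay above both without overlap, although their arrays did overlap. NID2 ranked 10 of 3768 genes from the bottom in Snail, 9 of 3966 in E47 and 38 of 4053 in Slug. On the Slug 1 array titled Cy5 its 2 spots were 2.29 apart, with the second above the control at 0.37.

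The interstitial genes as a group averaged higher than the basement membrane genes in each of the 6 samples, but the groups overlapped gene by gene. In Snail the 4 interstitial genes averaged 0.83 in sample 1 and 1.24 in sample 2, against -0.49 and -0.69 for the 3 basement membrane genes. In Slug the interstitial genes averaged 1.73 and 2.10, against 1.49 and 0.49 for the basement membrane genes. In E47 they averaged 0.91 and 1.32, against -0.18 and -0.24. The difference, interstitial minus basement membrane, was 1.63 ± 0.43 in Snail, 1.33 ± 0.34 in E47 and 0.92 ± 0.97 in Slug (SD, n = 2, log2 scale); in Slug it was 0.24 in sample 1 and 1.61 in sample 2. Within the interstitial group the gene means ran from -1.03 (BGN) to 2.15 (LUM) in Snail, and within the basement membrane group from -1.31 (NID2) to 2.18 (COL15A1) in Slug. NID2 alone placed the basement membrane group below 0 in E47, where COL15A1 and HSPG2 had means above the control. In Snail, COL15A1 had 0.38 and HSPG2 -0.15, against -2.01 for NID2. In Slug sample 1, COL15A1 (3.56) and HSPG2 (2.18) both lay above the interstitial mean of 1.73. There the interstitial group averaged higher only with NID2 (-1.27) counted. In Slug sample 2 both lay below the interstitial mean of 2.10. Their Slug means (2.18 and 2.10) also lay above the interstitial mean of 1.91. The 2 groups therefore did not separate in any transfectant, and the contrast between them rests on few genes that were chosen on these values.

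**Figure D3:**
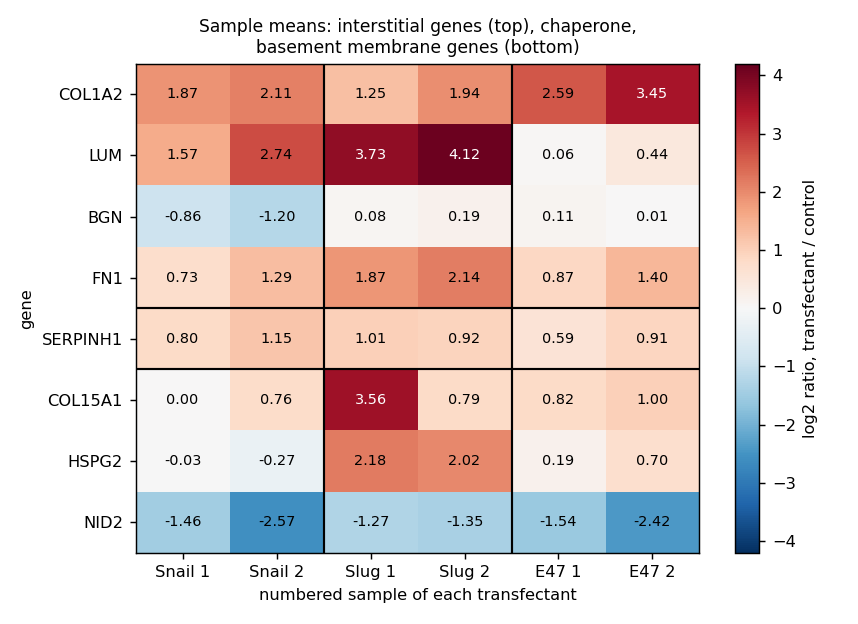
Mean log2 ratio of transfectant over control for each of the 8 genes (rows) in each numbered sample (columns), with the interstitial genes above, SERPINH1 between the lines and the basement membrane genes below; red is above the control and blue below. COL15A1 shows 3.56 in Slug 1 and 0.79 in Slug 2, and NID2 is blue in every column.

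At a mean of at least 2-fold, 3 of the 8 genes were higher than the control in Snail (COL1A2, LUM and FN1) and 2 lower (BGN and NID2), where 1.06% of all genes in the fit were that much higher and 1.62% that much lower. In Slug, 5 were higher (COL1A2, LUM, FN1, COL15A1 and HSPG2) and 1 lower (NID2), where 3.18% and 2.02% of all genes were. In E47, 2 were higher (COL1A2 and FN1) and 1 lower (NID2), where 1.64% and 0.706% of all genes were. With the signs turned, these counts exchange. The median over the 8 genes was 0.68 in Snail, 1.80 in Slug and 0.60 in E47, beside -0.05, 0.02 and 0.01 over all genes. Since the genes were chosen on these contrasts, nothing is read from these counts. With all arrays scaled to 1 spread LUM stood at 3.28 and HSPG2 at 1.75 in Slug.

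The rest of the matrix was followed with 3 lists of genes outside the set: other interstitial matrix genes (38 of 72 listed had a probe), other basement membrane genes (11 of 26) and enzymes and chaperones of collagen processing (8 of 22). These genes were tested with limma in 1 fit over all genes and samples, against a Benjamini-Hochberg adjusted p of 0.05. In Snail 4 of 52 rose (7.69%) and 1 fell (1.92%), where 2.15% of all genes rose and 5.07% fell. In Slug 10 of 56 rose (17.9%) and 2 fell (3.57%), where 12.2% rose and 9.62% fell. In E47 4 of 51 rose (7.84%) and 2 fell (3.92%), where 3.81% rose and 1.49% fell. With the signs turned, rises and falls exchange. The medians of these genes were 0.08 in Snail, 0.12 in Slug and 0.04 in E47. The counts were 1 without Snail replicate 2, 3 without Slug replicate 1, 2 without E47 replicate 1 and 1 without E47 replicate 2.

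None of the other basement membrane genes passed in any transfectant. Of all genes, 2.15% rose and 5.07% fell in Snail, 12.2% and 9.62% in Slug, and 3.81% and 1.49% in E47. With so few genes on the list, nothing is read from the absence of calls. Of 11 tested in Snail, 11 in Slug and 9 in E47, 1 in each had an unadjusted limma p under 0.05, and the mean ratios lay between -0.37 and 0.74 on the log2 scale. COL4A1, a chain of the type IV collagen network, had 0.18 in Snail, 0.23 in Slug and 0.08 in E47. LAMC1, the laminin gamma 1 chain, had 0.16, 0.15 and 0.04. NID1, the paralog of NID2, had -0.10 in Snail (adjusted p = 0.837) and -0.37 in Slug (adjusted p = 0.27), and was not tested in E47.

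Of the other interstitial matrix genes, 2 of 34 rose and 1 fell in Snail, where 2.15% of all genes rose and 5.07% fell, and 5 of 37 rose and 2 fell in Slug, where 12.2% rose and 9.62% fell. In E47, 3 of 35 rose and 2 fell, where 3.81% rose and 1.49% fell. SPARC, which binds collagen outside the cell, rose in Snail by 5.36 ± 0.88 (SE, n = 2, adjusted p = 0.0119) and in E47 by 4.69 ± 0.88 (adjusted p = 0.024). Its call was lost in Snail without either Snail replicate and in E47 without any 1 Snail or E47 replicate. Both calls remained without either Slug replicate. The SE of 0.88 is shared by all 3 transfectants in the fit. SPARC arrays lay between 5.15 and 5.64 in Snail and between 4.29 and 5.25 in E47, but between -0.74 and 4.57 in Slug. SPP1, the secreted phosphoprotein osteopontin, fell in all 3, with log2 ratios of -3.25 in Snail (adjusted p = 0.00173), -3.78 in Slug (adjusted p = 0.000512) and -3.02 in E47 (adjusted p = 0.00151). CCN2, a matricellular protein also known as CTGF, rose by 0.60 in Snail (adjusted p = 0.0336), 1.17 in Slug (adjusted p = 0.00156) and 1.06 in E47 (adjusted p = 0.00502). Its relative CCN1 rose in Slug by 1.44 ± 0.13 (SE, n = 2, adjusted p = 0.000808). COL9A2, a chain of the cartilage collagen type IX, rose in E47 by 0.90 ± 0.15 (adjusted p = 0.0143), and the cartilage proteoglycan gene ACAN fell in Slug (-0.59, adjusted p = 0.0354). The calls of CCN2 in Snail, COL9A2 in E47 and ACAN in Slug did not hold without either replicate of that transfectant, and that of CCN2 in Snail also not without either E47 replicate. CCN2 in E47 did not pass without E47 replicate 2.

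Most other collagen chains and leucine-rich proteoglycans on the array did not pass. COL14A1, another collagen that sits on fibrils, rose in Slug by 0.56 ± 0.13 (SE, n = 2, adjusted p = 0.0236). COL6A1, a chain of the beaded filament collagen type VI, had 0.01 in Snail, 0.11 in Slug and -0.08 in E47. COL12A1, a collagen that sits on type I fibrils, had -0.50, 0.30 and -0.02. Of the proteoglycans related to lumican and biglycan, FMOD had 0.22, 0.17 and -0.02, OGN had 0.11, 0.19 and 0.03, and PRELP had 0.08, -0.08 and -0.08 in Snail, Slug and E47. These genes were chosen after their values were seen, as relatives of the set.

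Collagen processing genes were the list with the largest share of calls in Slug. There 5 of 8 rose and 0 fell, where 12.2% of all genes rose: P3H1, a prolyl 3-hydroxylase of collagen, by 1.46 ± 0.13 (SE, n = 2, adjusted p = 0.00206), BMP1, which trims procollagen, by 0.93 ± 0.19 (adjusted p = 0.0129), PLOD1, a lysyl hydroxylase, by 0.89 ± 0.16 (adjusted p = 0.00839), P4HB, a subunit of prolyl 4-hydroxylase, by 0.69 ± 0.13 (adjusted p = 0.0092), and PPIB, a prolyl isomerase of the endoplasmic reticulum, by 0.96 (adjusted p = 0.0249), though PPIB was not above 0 on every array. Without Slug replicate 1 the calls of BMP1, PLOD1, P4HB and PPIB did not remain, at log2 ratios of 0.54, 0.77, 0.65 and 0.49. P3H1, with both samples complete in Slug only, could not be tested in that setting. In Snail 2 of 7 rose and 0 fell, where 2.15% of all genes rose and 5.07% fell. PPIB rose there by 1.43 ± 0.24 (adjusted p = 0.012) and CTSK, the collagen-degrading cathepsin K, by 1.12 ± 0.12 (adjusted p = 0.00331). Both calls were lost without Snail replicate 2. In E47 1 of 7 rose, where 3.81% of all genes rose. P4HB rose there by 0.73 ± 0.13 (adjusted p = 0.0199), a call lost without either E47 replicate. The medians of the list were 0.22 in Snail, 0.86 in Slug and 0.18 in E47, beside medians of all genes between -0.05 and 0.02.

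**Figure D4:**
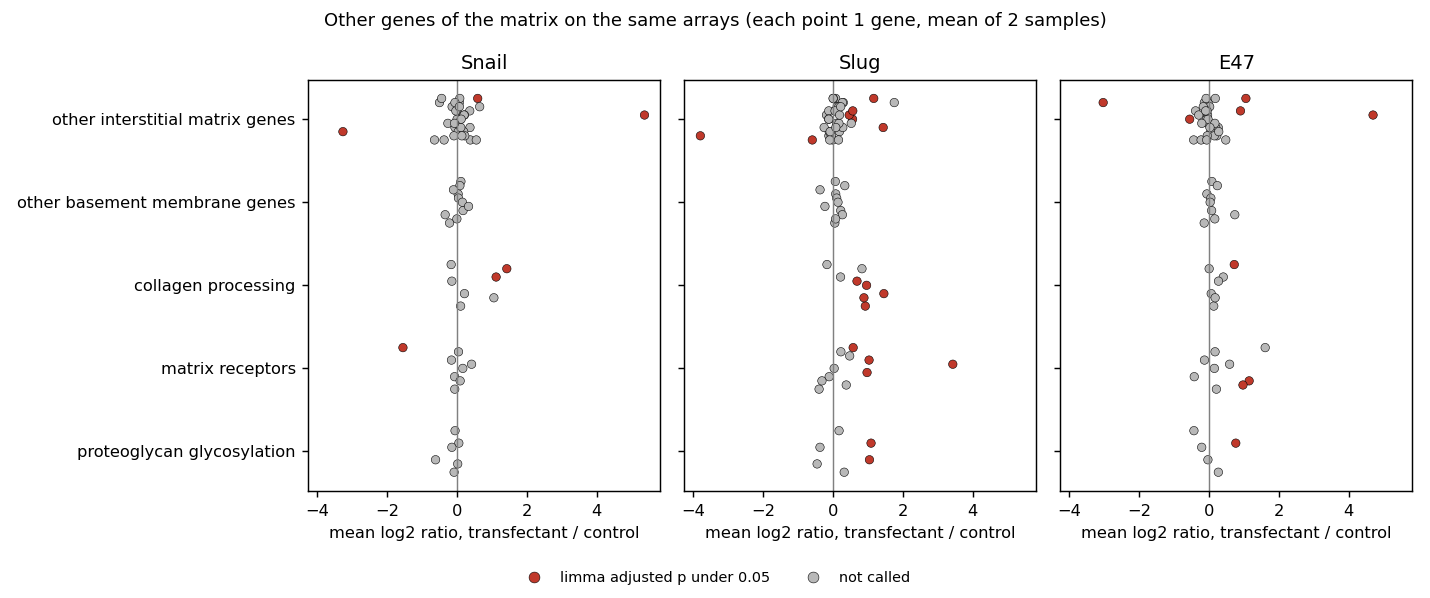
Mean log2 ratio of transfectant over control (horizontal axis) of each tested gene of 5 lists outside the set (vertical axis), 1 panel per transfectant; red points passed an adjusted p of 0.05 in limma. No basement membrane gene is red, and 5 of 8 collagen processing genes are red in Slug.

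Receptors of matrix, and enzymes that build the sugar chains of proteoglycans, were counted in the same fit. Of the receptors 4 of 11 rose in Slug and 0 fell, where 12.2% of all genes rose. In Snail 0 of 8 rose and 1 fell, where 2.15% of all genes rose and 5.07% fell. In E47 2 of 9 rose and 0 fell, where 3.81% rose. ITGA5, the fibronectin receptor subunit, rose in Slug by 3.43 ± 0.43 (SE, n = 2, adjusted p = 0.00321). In E47 it had 1.61 (adjusted p = 0.0885), with samples at 0.53 and 2.69, and it was not tested in Snail. ITGA10, a collagen receptor subunit, rose in Slug by 1.03 (adjusted p = 0.00158), the heparan sulfate proteoglycan SDC4 by 0.98 (adjusted p = 0.00843) and the collagen receptor subunit ITGA2 by 0.58 (adjusted p = 0.0319). Without Slug replicate 1 the calls of SDC4 and ITGA2 were lost, and without replicate 2 that of ITGA2. In E47, ITGAV rose by 1.15 (adjusted p = 0.0402) and SDC4 by 0.98 (adjusted p = 0.0225), neither of them without either E47 replicate, and ITGAV also not without either Snail replicate (adjusted p = 0.0645 in both). ITGA6, a laminin receptor subunit, fell in Snail (-1.54, adjusted p = 0.00229). Of 6 sugar chain genes tested in Slug, 2 rose, CHST2, a sulfotransferase, by 1.09 (adjusted p = 0.00321) and EXT1, a heparan sulfate polymerase, by 1.05 (adjusted p = 0.00362). EXT1 also rose in E47, by 0.77 (adjusted p = 0.0267), a call lost without either E47 replicate, and 0 of 6 passed in Snail, where 1 had an unadjusted limma p under 0.05.

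Between transfectants, 4 of 54 other matrix genes differed in at least 1 pair: CCN1, P4HB, PLOD1 and CTSK. Snail against Slug gave 4 calls among 52 genes, where 13.2% of all genes were called, Snail against E47 gave 1 among 49, where 2.57% were, and Slug against E47 gave 1 among 51, where 0.786% were. The hydroxylase genes P4HB (-0.16 in Snail, 0.69 in Slug) and PLOD1 (-0.14 in Snail, 0.89 in Slug) were lower in Snail than in Slug, with differences of -0.85 ± 0.18 (SE, adjusted p = 0.0248) and -1.03 ± 0.23 (adjusted p = 0.0274). CTSK was higher in Snail than in Slug by 0.90 ± 0.17 (adjusted p = 0.0189). Without Snail replicate 1 or 2 only 1 gene differed in any pair, and without Slug replicate 2 the number was 7.

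Likeness to the genes of the set was measured as Pearson r over the arrays among 854 other genes with a value on all 12 and sample means that spanned at least 1 on the log2 scale. The highest were GJA1 (r = 0.88), CDK14 (0.87) and ID2 (0.86) for COL1A2, and WNT5B (0.94), BCL2L1 (0.89) and SH3KBP1 (0.87) for LUM. For FN1 they were EXOSC4 (0.96), TLE1 (0.92) and CHD3 (0.91), and for BGN MED17 (0.98), STAMBPL1 (0.97) and UBE2G1 (0.96). For SERPINH1 they were RAI14 (0.89), VAT1 (0.85) and CYP2B6 (0.76), and for COL15A1 TCF4 (0.93), BTK (0.93) and ELK1 (0.92). For HSPG2, over its 10 arrays, they were ATF4 (0.97), CCN1 (0.96) and FBXO7 (0.96), and for NID2 HOXC11 (0.79), DKC1 (0.78) and TRAF7 (0.75). SERPINH1 entered as the mean of its 2 unlike clones, and COL15A1 with Slug samples at 3.56 and 0.79. All points share the 12 arrays, their 6 samples, the kind of control and the signs given to the arrays. A gene can follow the pattern at another level: TLE1 had means of -0.03 in Snail, 1.04 in Slug and 0.43 in E47, where FN1 had 1.01, 2.00 and 1.13. Within the set, FN1 and HSPG2 were most alike (r = 0.87, 10 arrays) and COL1A2 and LUM least (r = -0.69, 12 arrays).

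Lists of cell type markers were counted in the same fit. Of kidney epithelium markers 0 rose in any transfectant, while CDH1, KRT7 and MAL fell in Snail (3 of 9), CDH1, KRT19 and MAL in Slug (3 of 10) and CDH1 and KRT7 in E47 (2 of 9). CDH1 set the sign, and without it 2 of 8 fell in Snail, 2 of 9 in Slug and 1 of 8 in E47. Of all genes in the fit, 5.07% fell in Snail, 9.62% in Slug and 1.49% in E47. MAL was not below 0 on every Snail array, with the highest at 0.04. Of fibroblast markers 1 of 3 fell in Snail, THY1 (-0.82, adjusted p = 0.00911), and 0 of 4 passed in Slug and in E47, where 0 and 1 had an unadjusted limma p under 0.05. Of endothelial markers ENG, TEK and EGFL7 rose in Slug (3 of 7, at 1.05, 0.62 and 0.52, with a median of 0.37 over the list), where 12.2% of all genes rose, and of leukocyte markers 3 of 5 fell there (CD74, PTPRC and ITGAX), where 9.62% of all genes fell. ENG and EGFL7 were not above 0 on every Slug array, with the lowest at -0.19 and -0.49. ITGAX was not below 0 on every Slug array, with the highest at 0.002. In Snail 1 of 5 leukocyte markers fell, CD74 (-0.84, adjusted p = 0.0204). Ratios give no level, so which markers are absent from the cells is unknown, and the part of any other cell type in the matrix values was not tested.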

How the data were processed

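The deposited table holds 1 log2 ratio of the 2 channels per probe and array; for scanning, background correction, centring and the removal of spots, the authors' steps were not given in the sources used here. Array medians lay between -0.06 and 0.06. Probes were named from the platform annotation, 8047 of them with 1 symbol. Spots were averaged per clone, clones per gene, and the 2 arrays of a numbered sample to 1 replicate, for which both arrays were required in the fit. For the 8 genes of the set alone, 1 array sufficed (HSPG2). limma 3.58.1 in R 4.3.3 fitted 2 replicates of each of 3 transfectants together (3 residual degrees of freedom, prior 4.85), each group against 0 and each pair, two-sided, with Benjamini-Hochberg adjustment over all genes tested. If 1 control RNA was used throughout, which the labels do not say, the test against 0 leaves out the spread between control cultures. Precision is limited by how few samples there are, 2 per transfectant. The procedure was tested on simulated data. The genes of the set and all lists were chosen with earlier results of these data known. From each other list and transfectant, up to 4 called genes on 1 side of 0 on all 4 arrays with the largest ratio are named, and the 3 genes most like each gene of the set; others named were chosen after their values were seen. Alternatives covered dye, scaling, centring, clone summary, missing values, replicate block, sign, and leaving out samples.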

Additional observations from a re-analysis of the deposited data

Results flagged for a closer look

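Differences between transfectants are given as the first minus the second on the log2 scale. BGN and HSPG2 had all samples of 1 transfectant on one side of the control and all samples of another on the other side, and these differences were not tested: -1.16 for BGN between Snail (-1.03) and Slug (0.13), -1.09 between Snail and E47 (0.06), -2.25 for HSPG2 between Snail (-0.15) and Slug (2.10), and -0.593 between Snail and E47 (0.44). Some of these sample means lay next to 0, with HSPG2 at -0.03 in Snail sample 1 and BGN at 0.01 in E47 sample 2. Single BGN arrays lay on both sides of 0 in Slug and in E47, as did the HSPG2 arrays of Snail sample 1. HSPG2 rests on 1 array in Snail sample 2 and on 1 array in E47 sample 1.

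For genes outside the set, the difference itself passed in limma. Snail minus Slug was -1.49 for CCN1 (adjusted p = 0.00523), -0.853 for P4HB (0.0248), -1.03 for PLOD1 (0.0274) and 0.901 for CTSK (0.0189). It was -1.23 for ITGA6 (adjusted p = 0.014), -1.10 for ITGA10 (0.00972), -1.65 for EXT1 (0.00622) and -1.04 for CHST2 (0.0219). Snail minus E47 was -0.889 for P4HB (adjusted p = 0.0495), -2.13 for ITGA6 (0.00857) and -1.38 for EXT1 (0.0245). Slug minus E47 was 1.17 for CCN1 (adjusted p = 0.0388).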

How the results depend on the processing

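The choice that decides the directions is the sign given to the arrays. With the sign set by the dye in the title alone, limma called 0 other matrix genes in each transfectant and 0 between transfectants (0, 5 and 5 had an unadjusted p under 0.05 in Snail, Slug and E47, and 1, 0 and 1 for Snail minus Slug, Snail minus E47 and Slug minus E47). The interstitial minus basement membrane difference became -0.083 in Snail, -0.085 in Slug and -0.65 in E47. In this setting COL1A2 in E47 was -1.89 and LUM in Snail -0.39; BGN was 0.031 in Snail and -0.24 in Slug; FN1 was -0.024, -0.065 and -0.59 in Snail, Slug and E47; SERPINH1, COL15A1 and HSPG2 in E47 were -0.22, -0.67 and -0.25; NID2 was 0.023 in Snail and 0.97 in E47. SPARC was -0.037 in Snail and -2.07 in E47, CCN2 in Snail, Slug and E47 was -0.14, -0.057 and -0.44, and CTSK was -0.25 and ITGA6 0.023 in Snail. CCN1 was -0.11 and BMP1 -0.27 in Slug, and in E47 SPP1 was 1.68, COL9A2 -0.52, P4HB -0.28, ITGAV -0.66, SDC4 -0.39 and EXT1 -0.44. By construction, arrays that run opposite ways then cancel in a mean. Over all alternatives other than leaving out a replicate, which with 2 replicates moves a mean by a fixed part of its SD, 131 values of the 8 genes stayed within 1 SD of the reported one, 26 moved by more, and 12 that had exceeded their SD changed sign, all 12 in this setting.

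With arrays titled Cy3 alone, other matrix genes passing numbered 2 in Snail, 6 in Slug, 3 in E47 and 1 between transfectants, and with all arrays at 1 spread 7 passed in Slug; the cause was not tested. Leaving out 1 replicate gave 1 to 6 in Snail, 3 to 12 in Slug, 1 to 6 in E47 and 1 to 7 between transfectants, and the group difference ran from 1.32 to 1.93 in Snail, 0.24 to 1.61 in Slug and 1.09 to 1.57 in E47. The lone sample is then assumed to vary like the others. The group difference had no value in Snail and E47 with Cy3 arrays alone, nor from spots measured on every array, since HSPG2 was missing. Deviations of samples sharing a number correlated at 0.23 between Snail and E47, but at 0.02 between Snail and Slug and -0.07 between Slug and E47 (3537 genes), so the numbers were not taken to pair samples; the replicate block, on genes complete in all samples, gave 7, 11 and 6 calls in Snail, Slug and E47 and 5 between transfectants.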
